A study of Mus musculus with 24 samples.

Results

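The ribosome biogenesis genes described here are 41 nucleolar and pre-ribosome assembly factor genes, with the transcription factor gene Myc among them, out of 57126 gene identifiers in the count table. They were chosen by name, with earlier results of these data known. All 41 were found in the table by their Ensembl identifiers, had counts and passed the filter on low counts. The ileum of wild-type C57BL/6J males, fasted for 4 h, was cut into fragments that stayed in culture for 8 h with 1 of 6 additions, and RNA was measured by QuantSeq, which counts mRNAs by a tag near the 3' end. The 24 libraries form 6 groups of 4. The first group received tauro-conjugated chenodeoxycholic acid (tCDCA), a bile acid, at 200 µM in replicates 2 to 4, while the label of replicate 1 gives no dose. The next 4 groups received extracts named CME(-) or CME(+) from donor mice that were wild-type (WT) or Asbt-/- (KO), with 200 µM given for CME(-) replicates 2 to 4 and no concentration for CME(+). The last group received the solvent DMSO at 0.6% in replicates 2 to 4 and 0.5% in replicate 1. The labels do not expand the abbreviation CME, and CME(+) was taken as the form depleted of bile acids. Asbt is the bile acid uptake carrier of the ileum. Only the KO extract donors lacked it, and the cultured tissue was wild-type in every group, so there was no targeted gene to check. Whether fragments within a group stem from different mice is not given in the labels. The p-values therefore rest on sample-to-sample spread that could be technical.

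Ribosomes are built in the nucleolus, where RNA polymerase I transcribes the precursor of the ribosomal RNAs and small nucleolar ribonucleoproteins modify it while assembly factors fold, cut and package it into the small (40S) and large (60S) subunits. MYC, which binds DNA together with MAX, is a well-known activator of the genes for these factors. In the intestinal epithelium ribosome production is high in the dividing cells of the crypts and lower in the mature absorptive cells of the villi.

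The libraries came in 2 sets that differ in the prefix of their column names, taken here as 2 sequencing runs: replicate 1 of every group in the first and replicates 2 to 4 in the second. The labels mark 3 libraries as removed, namely KO CME(-) replicate 3, WT CME(+) replicate 2 and DMSO replicate 1, and these stayed out of the tests, so DMSO had no library of the first run. The 21 used libraries held between 2755149 and 5602265 counts, and the 41 genes together took between 0.0935 and 0.2268% of them. Mitochondrial rRNA made up 6.78 to 8.29% of used first-run libraries and 5.29 to 34.6% of second-run ones; in the second run it was 33.14, 5.29 and 28.14% with tCDCA and 17.57 to 19.02% with KO CME(+), against 29.17, 34.6 and 19.46% with DMSO. Its part in the results below was not tested. All 19 absorptive enterocyte markers and all 9 Paneth cell markers looked for were detected. Levels below are in CPM, counts relative to the library total after TMM scaling. Genes count as called where the adjusted p in edgeR's quasi-likelihood test lay under 0.05, with Benjamini-Hochberg adjustment over 13125 genes; ± after a log2 change is its standard error (SE).

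The genes stood higher in most second-run libraries of the treated groups than with DMSO, and showed little difference in the first run. For each library, the median over the 41 genes of log2(CPM + 1) was taken relative to the mean of the 3 used DMSO libraries. This median was 0.54, 0.58 and 0.54 in the second-run tCDCA libraries and 0.56, 0.64 and 0.61 in the second-run KO CME(+) libraries, against 0.20, -0.17 and 0.06 in the used DMSO libraries. It was 0.29, 0.43 and 0.33 in WT CME(-) libraries, 0.35 and 0.44 in KO CME(-) libraries and 0.40 and 0.31 in WT CME(+) libraries of that run. All 13 used treated libraries of the second run were thus above the highest DMSO library. In the first run the values were 0.16 with tCDCA, 0.12 with WT CME(-), 0.21 with KO CME(-), 0.02 with WT CME(+) and -0.02 with KO CME(+), against 0.08 in the removed DMSO replicate 1. Set directly against that removed library, the first-run tCDCA library was higher in 25 of the 41 genes and lower in 16, with a median log2 difference of 0.10, and the KO CME(+) library was higher in 18 and lower in 23 (median -0.04). DMSO concentration and run differ together between these sets and cannot be told apart, and no dose is given for the first run. Immune cell markers differed between the sets as well: used first-run libraries had 5730 to 7390 summed CPM of B and plasma cell genes, 92.5 to 128 of T and NK cell genes and 372 to 442 of myeloid genes, against 956 to 2960, 13.1 to 41.6 and 115 to 178 CPM in used second-run libraries. Their part in the contrast between runs was not tested.

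**Figure D1:**
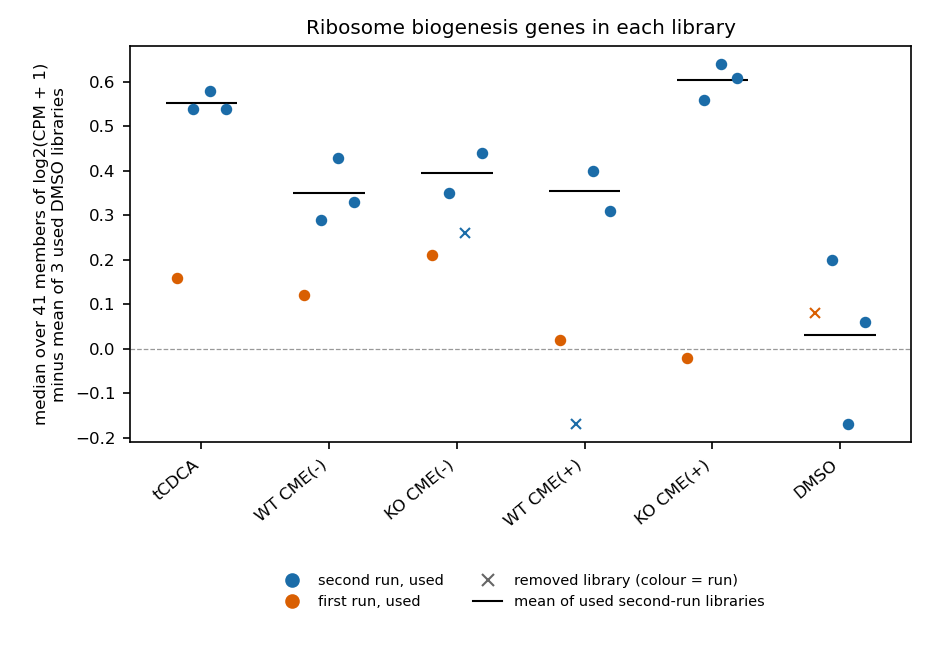
Each point is 1 library: the median over the 41 genes of log2(CPM + 1) minus the mean of the 3 used DMSO libraries (vertical axis, log2 units), by group. Blue marks the second run, orange the first, crosses the 3 removed libraries, and the line is the mean of the used second-run libraries; the second-run tCDCA and KO CME(+) points lie at 0.54 to 0.64, while their first-run points lie at 0.16 and -0.02.

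With tCDCA, 5 of the 41 genes rose against DMSO and none fell: the nucleolar genes Ddx21 and Npm1, the snoRNP gene Gar1, the small-subunit factor gene Utp4 and the large-subunit factor gene Nop16. Of all genes tested, 5.68% were called in this comparison, 2.52% higher and 3.16% lower. Over the 41 genes 40 log2 changes were positive with a median of 0.51, against a median of 0.00 over all genes. In edgeR 20 of the 41 had an unadjusted p under 0.05, against 2322 of all 13125 genes. With KO CME(+), 4 rose (Ddx21, Gar1, Dkc1 and Polr1a) and none fell, where 2.31% of all genes were called and 1.39% were higher; 37 of the log2 changes were positive with a median of 0.50. With KO CME(-), Utp4 alone was called, against 0.952% of all genes (0.381% higher, 0.571% lower), and 37 changes were positive (median 0.40). With WT CME(-) and with WT CME(+), edgeR called none of the 41 at backgrounds of 0.297% and 0.175%. Of the 41, 9 and 8 had an unadjusted p under 0.05, against 1231 and 1317 of all 13125 genes. Among the 41 log2 changes 36 and 37 were positive, and the medians were 0.30 and 0.33. DESeq2 called 0 of the 41 with WT CME(-) and 1 with WT CME(+). All 5 comparisons use the same 3 DMSO libraries, so their counts are not independent of one another.

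The count of called genes depended on the run term and on single DMSO libraries. Without the run term 0 of the 41 were called with tCDCA, with KO CME(-) and with KO CME(+). With tCDCA it was 8 without DMSO replicate 2, 1 without DMSO replicate 3 and 3 without DMSO replicate 4; with the removed DMSO replicate 1 added it was 2, and in the second run alone it was 3. With KO CME(+) it was 5 in the second run alone, 1 without DMSO replicate 3, and 2 without DMSO replicate 4, KO CME(+) replicate 2 or KO CME(+) replicate 3. With KO CME(-) it was 0 without any of the 3 DMSO libraries in turn, without KO CME(-) replicate 1 and without replicate 4, and 2 without replicate 2. The number called over all genes tested moved as well. Over all alternative settings it ran from 176 to 993 with tCDCA, against 746 in the fit used above. With KO CME(-) it ran from 3 to 297, against 125, and with KO CME(+) from 3 to 610, against 303. Such moves are therefore not particular to the 41 genes.

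**Figure D2:**
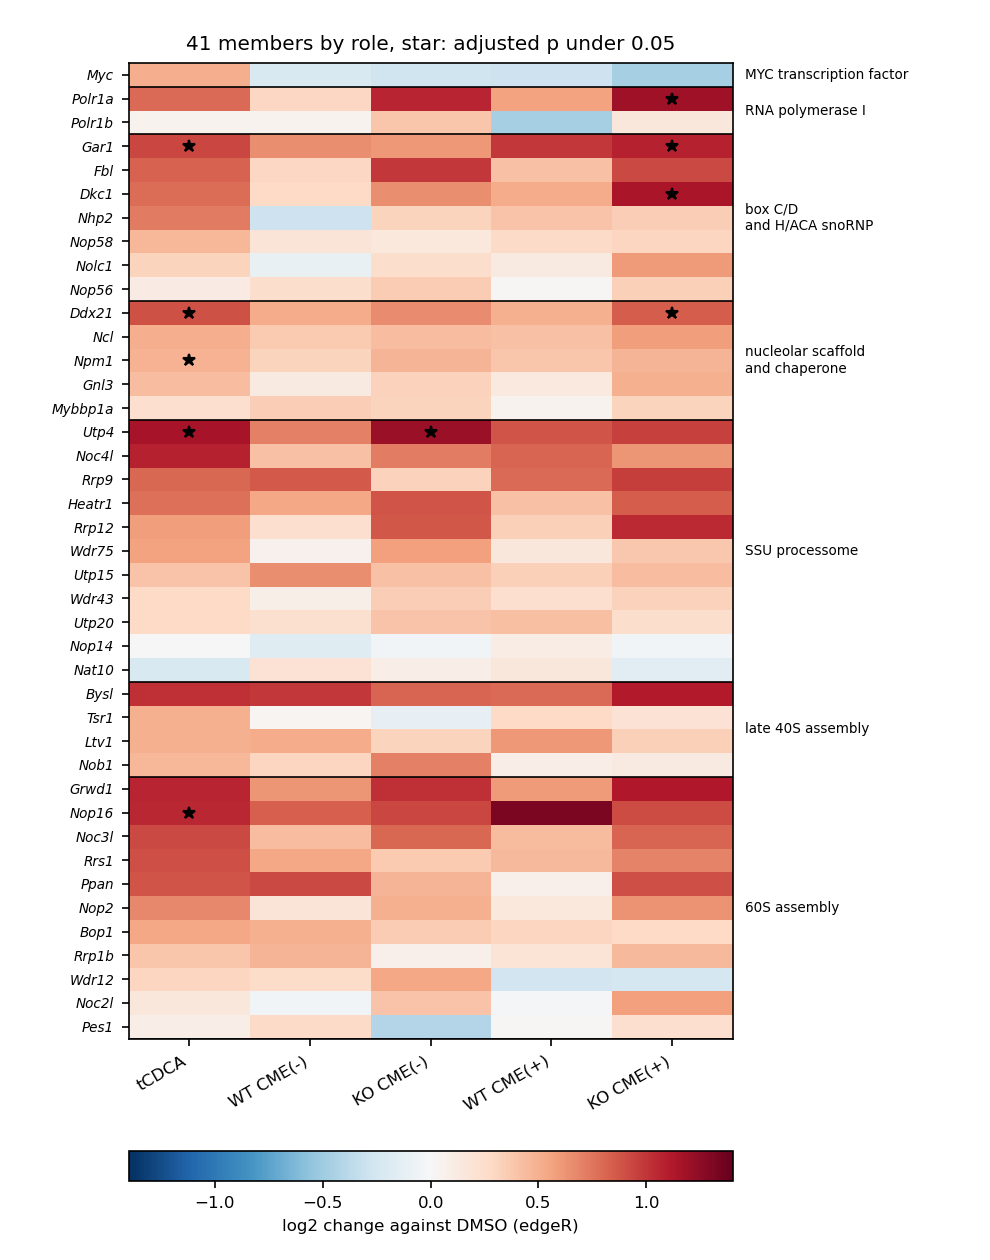
Colour gives the edgeR log2 change of each of the 41 genes (rows, grouped by role) against DMSO in the 5 treated groups (columns), and a star marks an adjusted p under 0.05. Red prevails in every column, Myc is blue in the 4 extract columns, and the 10 stars fall on 7 genes.

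Myc (ENSMUSG00000022346) was not called in any comparison with DMSO. It was at 28.8, 25.3 and 22.6 CPM in the second-run tCDCA libraries, against 22.0, 11.9 and 17.5 CPM with DMSO, and the first-run tCDCA library was at 9.96 CPM against 3.32 in the removed DMSO library. All 3 second-run tCDCA values were above the DMSO values, the nearest pair being 22.6 and 22.0 CPM. The log2 change was 0.50 ± 0.31 (adjusted p = 0.428), and 0.30 without DMSO replicate 3. With the extracts Myc was at 15.6, 12.2 and 11.0 CPM in WT CME(-), 12.7 and 17.3 in KO CME(-), 14.5 and 8.87 in WT CME(+) and 16.9, 10.1 and 15.2 in KO CME(+) libraries of the second run. These overlapped the DMSO range or lay below it in every extract group. In the first run Myc was at 9.88 CPM in WT CME(-), 6.06 in KO CME(-), 9.33 in WT CME(+) and 3.18 in KO CME(+). All but KO CME(+) lay above the removed DMSO library at 3.32 CPM. The first-run tCDCA library, at 9.96 CPM, was nearly level with those of WT CME(-) and WT CME(+). The log2 changes against DMSO were -0.22 ± 0.32, -0.28 ± 0.35, -0.29 ± 0.35 and -0.47 ± 0.31 in that order of groups, with adjusted p between 0.501 and 0.894. Set directly against the extracts, Myc had log2 differences of 0.72 ± 0.29 over WT CME(-), 0.78 ± 0.32 over KO CME(-), 0.79 ± 0.32 over WT CME(+) and 0.97 ± 0.29 over KO CME(+) in tCDCA libraries. Unadjusted p ran from 0.00157 to 0.019 and edgeR adjusted p from 0.0669 to 0.462, so none passed the threshold; 0.541%, 0.114%, 1.55% and 1.93% of all genes were called there.

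MYC acts in a network of related proteins, and 4 of 15 tested genes of it fell with tCDCA while none rose. Max, which encodes the partner that MYC needs to bind DNA, fell 2.01-fold (adjusted p = 0.000144), Mxi1 and Mxd1, whose products compete with MYC for MAX, were at -1.06 ± 0.22 (0.00147) and -0.63 ± 0.17 (0.0205), and Mlxipl, a glucose-responsive relative, was at -0.98 ± 0.24 (0.00996). Max fell with KO CME(-) too (2.01-fold, adjusted p = 0.00482) and with KO CME(+) (-0.65 ± 0.17, 0.0305). Of 31 tested MYC targets outside the ribosome 5 rose with tCDCA and none fell, with a median of 0.39. Among them were Shmt2, a mitochondrial enzyme of one-carbon metabolism (0.91 ± 0.24, adjusted p = 0.0178), Ran, the GTPase of nuclear transport (0.79 ± 0.22, 0.0271), and Set, a histone chaperone gene (0.64 ± 0.17, 0.0205).

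The hexamer CACGTG, the E-box to which MYC with MAX binds, was searched in RefSeq promoters on build GRCm38.p6, from 250 bases before to 50 after each annotated start; the word is its own reverse complement, so both strands were read at once. Of the 41 genes 35 were in the promoter table, and 9 of these (25.7%) held it, against 2187 of 27025 promoters of all genes (8.09%). The 9 were Grwd1, Ltv1, Mybbp1a, Nop2, Pes1, Tsr1, Utp20, Utp4 and Wdr43. Of the 7 genes called in any comparison with DMSO, Utp4 was the one with a match, while Ddx21, Dkc1, Gar1, Nop16 and Polr1a had none in this window and Npm1 was not in the table. A match is a description of the sequence, not a binding site. The promoters of Utp4, called with tCDCA and KO CME(-), and of Grwd1 and Nop2, the matched genes with the next smallest p under tCDCA, are shown with the hexamer in capitals.
Utp4 (chr8:106893390-106893689, strand +): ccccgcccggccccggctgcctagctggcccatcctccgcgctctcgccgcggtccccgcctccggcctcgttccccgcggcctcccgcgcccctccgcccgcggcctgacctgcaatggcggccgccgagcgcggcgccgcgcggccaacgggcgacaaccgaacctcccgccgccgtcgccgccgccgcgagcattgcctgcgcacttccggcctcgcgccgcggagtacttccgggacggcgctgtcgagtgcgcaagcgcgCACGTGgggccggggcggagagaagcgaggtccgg
Grwd1 (chr7:45830740-45831039, strand -): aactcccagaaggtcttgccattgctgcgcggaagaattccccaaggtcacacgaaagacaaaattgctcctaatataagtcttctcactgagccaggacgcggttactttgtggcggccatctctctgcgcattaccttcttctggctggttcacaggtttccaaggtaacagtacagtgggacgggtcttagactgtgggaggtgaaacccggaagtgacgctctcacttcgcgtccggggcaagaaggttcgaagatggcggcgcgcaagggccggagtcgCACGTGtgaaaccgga
Nop2 (chr6:125131633-125131932, strand +): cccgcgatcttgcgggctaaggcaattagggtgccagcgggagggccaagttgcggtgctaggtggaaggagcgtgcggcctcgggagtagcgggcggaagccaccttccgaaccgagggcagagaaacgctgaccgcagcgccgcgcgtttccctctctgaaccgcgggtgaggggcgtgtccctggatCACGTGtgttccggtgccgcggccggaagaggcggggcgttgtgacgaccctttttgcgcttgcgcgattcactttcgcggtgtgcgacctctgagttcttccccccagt
In Utp4 and Grwd1 the hexamer began 16 and 35 bases into the transcribed part, and in Nop2 60 bases before the start.

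RNA polymerase I was represented by the genes of its largest subunits, Polr1a and Polr1b. Polr1a (ENSMUSG00000049553) was at 22.3, 22.9 and 20.7 CPM in the second-run KO CME(+) libraries, against 8.56, 13.3 and 9.69 CPM with DMSO. The groups did not overlap, and the first-run KO CME(+) library, at 16.7 CPM, also lay above the removed DMSO library at 5.31. It rose 2.28-fold (log2 1.19 ± 0.31, edgeR adjusted p = 0.0256). It was at 18.0, 24.0 and 12.6 CPM with tCDCA (0.80 ± 0.31, adjusted p = 0.13), overlapping DMSO, and at 21.1 and 22.7 CPM with KO CME(-), above all DMSO libraries (1.07 ± 0.33, 0.109). Polr1a was at 14.4, 15.1 and 15.8 CPM with WT CME(-) and 14.2 and 13.6 CPM with WT CME(+), also above all DMSO libraries. The log2 changes there were 0.30 and 0.57, not called. In the first run WT CME(-) was at 3.22 and WT CME(+) at 10.4 CPM, against 5.31 in the removed DMSO library. The call with KO CME(+) was lost without any 1 of KO CME(+) replicates 1 to 3 or of the DMSO libraries, with log2 changes of 1.06 to 1.39. Polr1a shares exon bases with an opposite-strand gene, Gm26628, and the strand setting of the counting is not given, so its counts are uncertain. Polr1b had 2 to 22 counts per library, and its changes, from -0.47 to 0.39, had SEs of at least 0.63. Of 18 other tested genes of this polymerase and its factors 2 rose with tCDCA, Polr2k (1.21 ± 0.33, adjusted p = 0.0201) and Polr2e (0.58 ± 0.18, 0.0482), subunits shared between RNA polymerases. With KO CME(+) 2 rose as well, Polr2e and Tcof1, the treacle gene (1.21 ± 0.25, 0.00324), named after its value was seen.

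Box H/ACA ribonucleoproteins turn uridines of rRNA into pseudouridine; Dkc1 encodes their enzyme and Gar1 and Nhp2 encode core proteins. Gar1 (ENSMUSG00000028010) was at 35.6, 49.1 and 49.0 CPM in the second-run tCDCA libraries and 53.1, 51.5 and 54.1 in the KO CME(+) ones, against 27.2, 18.9 and 27.7 CPM with DMSO. Every value of both treated groups was above every DMSO value, and the KO CME(+) libraries were close together. In the first run Gar1 was at 22.3 CPM with tCDCA and 19.9 with KO CME(+), against 16.8 in the removed DMSO library. It rose 1.91-fold with tCDCA (0.93 ± 0.23, adjusted p = 0.00936) and 2.10-fold with KO CME(+) (1.07 ± 0.23, 0.00513). With WT CME(+) it was at 44.0 and 49.1 CPM (0.99 ± 0.25, adjusted p = 0.0837) and with WT CME(-) at 34.8, 42.1 and 44.6 CPM (0.65 ± 0.23, 0.286), again above DMSO in all second-run libraries but not called. With KO CME(-) it was at 24.6 and 54.1 CPM (log2 change 0.60, not called), the lower value inside the DMSO range. In the first run WT CME(-) and KO CME(-) were both at 13.7 CPM, below the removed DMSO library, and WT CME(+) was at 22.1 CPM, above it. Without DMSO replicate 3 the Gar1 calls were lost, at 0.78 (adjusted p = 0.106) with tCDCA and 0.92 (0.103) with KO CME(+).

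Dkc1 (ENSMUSG00000031403) was at 26.5, 29.1 and 30 CPM with KO CME(+) in the second run, against 8.86, 16.4 and 10.8 CPM with DMSO. These groups did not overlap, but the first-run KO CME(+) library, at 20.8 CPM, was below the removed DMSO library at 26.7. Dkc1 rose 2.20-fold with KO CME(+) (1.14 ± 0.29, adjusted p = 0.0231), and adding the removed DMSO library moved this to 0.79 (0.183). The call was also lost without DMSO replicate 2, DMSO replicate 4 or any 1 of KO CME(+) replicates 2 to 4. It shares exon bases with Mpp1 on the other strand and is uncertain for that reason. Nhp2 had its highest change with tCDCA (0.73 ± 0.30, adjusted p = 0.164) and its lowest with WT CME(-) (-0.29 ± 0.31, 0.835). Between these groups directly the difference was 1.02 ± 0.27 (adjusted p = 0.0727). Among box C/D genes, whose particles guide 2'-O-methylation of rRNA, the methyltransferase gene Fbl was at 0.83 ± 0.43 with tCDCA and 0.93 ± 0.43 with KO CME(+), the core protein gene Nop58 at 0.47 ± 0.19 and 0.30 ± 0.18, and Nop56 at 0.11 ± 0.31 and 0.34 ± 0.30, none of them called. Fbl was at 1.05 CPM in DMSO replicate 3 against 7.34 and 12.2 in the other DMSO libraries, and without that library its changes were 0.35 and 0.45. Without DMSO replicate 2 Nop58 was at 0.77 with tCDCA and passed the threshold (adjusted p = 0.0135), and without DMSO replicate 3 it was at 0.28. Nolc1, which encodes a chaperone of these particles, was at 0.31 ± 0.21 and 0.59 ± 0.21. Of 16 other genes of rRNA modification, Snu13, a box C/D core protein gene, rose with tCDCA (0.96 ± 0.28, adjusted p = 0.0302), and Zcchc4, an rRNA methyltransferase gene, fell (-1.35 ± 0.36, 0.0176).

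Ddx21 (ENSMUSG00000020075), the gene of a nucleolar RNA helicase that acts in rRNA transcription and processing, rose with tCDCA and with KO CME(+). It was at 243, 200 and 280 CPM in the second-run tCDCA libraries and 216, 257 and 243 CPM in the KO CME(+) ones, against 144, 110 and 124 CPM with DMSO. The lowest treated library was well above the highest DMSO library in both comparisons. The first-run libraries had 136 CPM with tCDCA and 123 with KO CME(+), against 107 in the removed DMSO library, in the same direction but with smaller gaps. The changes were 1.85-fold with tCDCA (0.89 ± 0.17, adjusted p = 0.00088) and 1.80-fold with KO CME(+) (0.85 ± 0.17, 0.00359). Both calls held in 18 of 21 alternatives; without DMSO replicate 3 the one with KO CME(+) was at 0.76 (adjusted p = 0.0656). With the other extracts Ddx21 was at 204, 202 and 158 CPM in WT CME(-), 159 and 186 in KO CME(-) and 182 and 156 in WT CME(+) libraries of the second run, all above the DMSO range, with log2 changes of 0.52 ± 0.17, 0.66 ± 0.19 and 0.50 ± 0.19 that were not called. In the first run WT CME(-) was at 102 CPM, below the removed DMSO library at 107, while KO CME(-) at 161 and WT CME(+) at 126 CPM were above it.

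Npm1 (ENSMUSG00000057113), the gene of the nucleolar chaperone nucleophosmin, was at 192, 229 and 200 CPM in the second-run tCDCA libraries, against 156, 142 and 158 CPM with DMSO. The groups did not overlap, and the first-run tCDCA library was at 239 against 200 CPM in the removed DMSO library. It rose 1.4-fold (0.49 ± 0.15, adjusted p = 0.0432), a change close to the threshold that was called in 5 of 21 alternatives and lost without any 1 of the 3 DMSO libraries or of tCDCA replicates 1, 3 and 4. With the extracts its log2 changes were 0.31 to 0.47, none called. In the first run Npm1 was at 194 CPM with WT CME(-) and 192 with KO CME(+), below the removed DMSO library. KO CME(-) at 212 and WT CME(+) at 222 CPM were above it. Ncl, the gene of nucleolin, which binds nascent rRNA, was at 726, 419 and 778 CPM in the second-run tCDCA libraries, against 551, 404 and 424 CPM with DMSO. The value of 419 belongs to tCDCA replicate 3, the library with the low mitochondrial rRNA share, and lay inside the DMSO range. Its changes were 0.51 ± 0.18 with tCDCA (adjusted p = 0.0886) and 0.58 ± 0.18 with KO CME(+) (0.0731). The nucleostemin gene Gnl3 was at 0.44 ± 0.20 and 0.50 ± 0.20, and Mybbp1a, whose product acts on RNA polymerase I transcription, at 0.24 ± 0.26 and 0.31 ± 0.26 in the same comparisons.

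**Figure D3:**
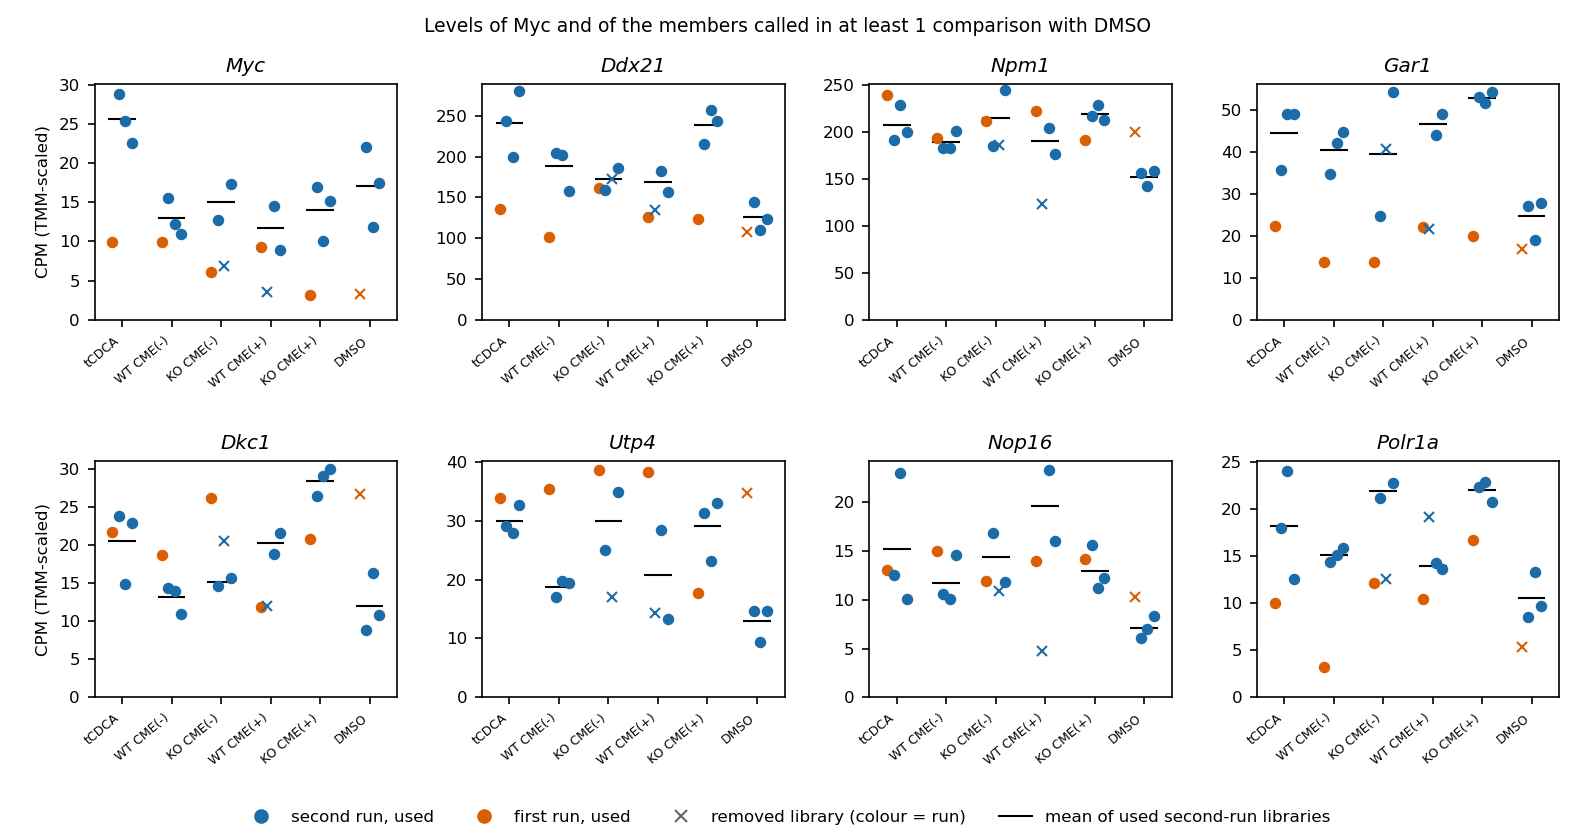
Levels in CPM (vertical axes, each starting at 0) of Myc and the 7 genes called in at least 1 comparison with DMSO, 1 point per library by group; colours, crosses and lines as in the plot of library medians. Second-run tCDCA values of Ddx21, 200 to 280 CPM, lie above those with DMSO, 110 to 144 CPM, while first-run values of Utp4 are high in most groups, the removed DMSO library at 34.8 CPM included.

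The SSU processome is the large particle that folds and cuts the 5' part of the precursor RNA for the small subunit. Utp4 (ENSMUSG00000041438), the gene of one of its early-binding proteins, was at 29.2, 27.9 and 32.7 CPM in the second-run tCDCA libraries, against 14.7, 9.44 and 14.7 CPM with DMSO. In KO CME(-) libraries of that run it was at 25.0 and 34.9 CPM. No second-run library of these groups overlapped DMSO, but in the first run Utp4 was at 33.9 CPM with tCDCA and 38.7 with KO CME(-), against 34.8 in the removed DMSO library, so the first run showed no such gap. Utp4 rose 2.23-fold with tCDCA (1.15 ± 0.29, adjusted p = 0.0109) and 2.31-fold with KO CME(-) (1.21 ± 0.31, 0.0428). With the removed DMSO library added these were 0.81 (adjusted p = 0.101) and 0.83 (0.328), and without DMSO replicate 3 they were 0.98 (0.108) and 1.03 (0.257). The KO CME(-) call was also lost without DMSO replicate 2, DMSO replicate 4, or KO CME(-) replicate 1 or 4.

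The other 10 processome genes were not called. Noc4l had 1.08 ± 0.36 with tCDCA (adjusted p = 0.0651) and 0.72 without DMSO replicate 3, Rrp9, the gene of a U3 snoRNP protein, 0.81 ± 0.36, and Heatr1, which acts with Utp4 at the start of assembly, 0.77 ± 0.34. Heatr1 was at 1.33 without DMSO replicate 2, which passed the threshold (adjusted p = 0.0307), and at 0.41 without DMSO replicate 4. Nop14 was near 0 in all 5 comparisons, between -0.17 and 0.10, and Nat10, an RNA acetyltransferase gene, ran from -0.21 with tCDCA, the lowest of the 41 there, to 0.20 with WT CME(-). Of the 4 genes of late small-subunit assembly, Bysl had the highest changes, 1.02 ± 0.37 with tCDCA (adjusted p = 0.103) and 1.11 ± 0.37 with KO CME(+) (0.107). They rested in part on DMSO replicate 3, where Bysl was at 1.75 CPM against 13.8 and 12.7 in the other DMSO libraries, and without it they were 0.56 and 0.65. Nob1, the gene of the nuclease that makes the last cut of 18S rRNA, was at 0.46 ± 0.33 with tCDCA, and Tsr1 and Ltv1 at 0.50 ± 0.32 and 0.50 ± 0.30. Of 43 further genes of the processome and small-subunit assembly 1 rose with tCDCA, Fcf1, a processome gene (0.77 ± 0.22, adjusted p = 0.0283), and none fell, with 30 positive changes and a median of 0.26. Fcf1 rose with KO CME(+) too (0.81 ± 0.22, 0.0358).

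Nop16 (ENSMUSG00000025869) was the called gene among 11 factors of large-subunit assembly. It was at 12.6, 23.0 and 10.1 CPM in the second-run tCDCA libraries, against 6.11, 6.99 and 8.31 CPM with DMSO. The groups did not overlap, but tCDCA replicate 3 was far above the other tCDCA libraries, and without it the change was 0.74 (adjusted p = 0.234). The first-run tCDCA library was at 13.1 CPM against 10.3 in the removed DMSO library. Nop16 rose 2.08-fold (1.05 ± 0.32, adjusted p = 0.0423), and the call was lost without any 1 of the DMSO libraries as well. With WT CME(+) it was at 23.3 and 16.0 CPM, above all DMSO libraries (1.32 ± 0.34, adjusted p = 0.104). The genes of the PeBoW complex, which acts in large-subunit rRNA processing, had these changes with tCDCA, none called: Bop1 0.54 ± 0.35, Wdr12 0.31 ± 0.41 and Pes1 0.09 ± 0.29. Grwd1 (1.07 ± 0.45), Noc3l (0.93 ± 0.35), Rrs1 (0.90 ± 0.29, adjusted p = 0.0614), Ppan (0.88 ± 0.45) and the rRNA methyltransferase gene Nop2 (0.67 ± 0.31) were higher in estimate but not called. Of 55 further large-subunit assembly genes 4 rose with tCDCA and none fell (median 0.36): Nifk (0.82 ± 0.23, adjusted p = 0.0299), Senp3, the gene of a nucleolar SUMO protease (1.12 ± 0.33, 0.0374), Rsl1d1 (0.55 ± 0.17, 0.0416) and Surf6 (0.96 ± 0.29, 0.0432). Senp3 and Rsl1d1 rose with KO CME(+) as well (1.28 ± 0.33, 0.0273, and 0.60 ± 0.17, 0.0421).

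Genes of the ribosomal proteins, which these factors assemble with rRNA, rose in part with tCDCA. Of 46 tested large-subunit protein genes 13 rose with tCDCA (median 0.48) and 0 with KO CME(+) (median 0.10, 4 at an unadjusted p under 0.05), and of 32 small-subunit protein genes 9 rose with tCDCA (median 0.52) and 0 with KO CME(+) (median 0.16, also 4 unadjusted). Of all 13125 genes 1997 had an unadjusted p under 0.05 with KO CME(+). With KO CME(-) 2 large-subunit protein genes rose, Rpl4 and Rpl35, also named after their values were seen. The medians with KO CME(-) were 0.48 and 0.47, against 0.27 and 0.24 with WT CME(-) and 0.21 and 0.17 with WT CME(+). The 41 assembly genes had a median of 0.51 with tCDCA and of 0.50 with KO CME(+), and whether the lists differ in this respect was not tested. Summed over the large subunit, second-run tCDCA libraries were at 14300, 26700 and 16700 CPM, against 11700, 12800 and 16500 CPM with DMSO, so tCDCA replicate 3 stood far above the rest. Many ribosomal protein genes have near-identical processed copies, so their counts are uncertain. Of 15 tested nuclear exosome genes, which trim rRNA precursors, Exosc2 rose with tCDCA (1.35 ± 0.38, adjusted p = 0.0283) and with KO CME(+) (1.42 ± 0.38, 0.0367).

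**Figure D4:**
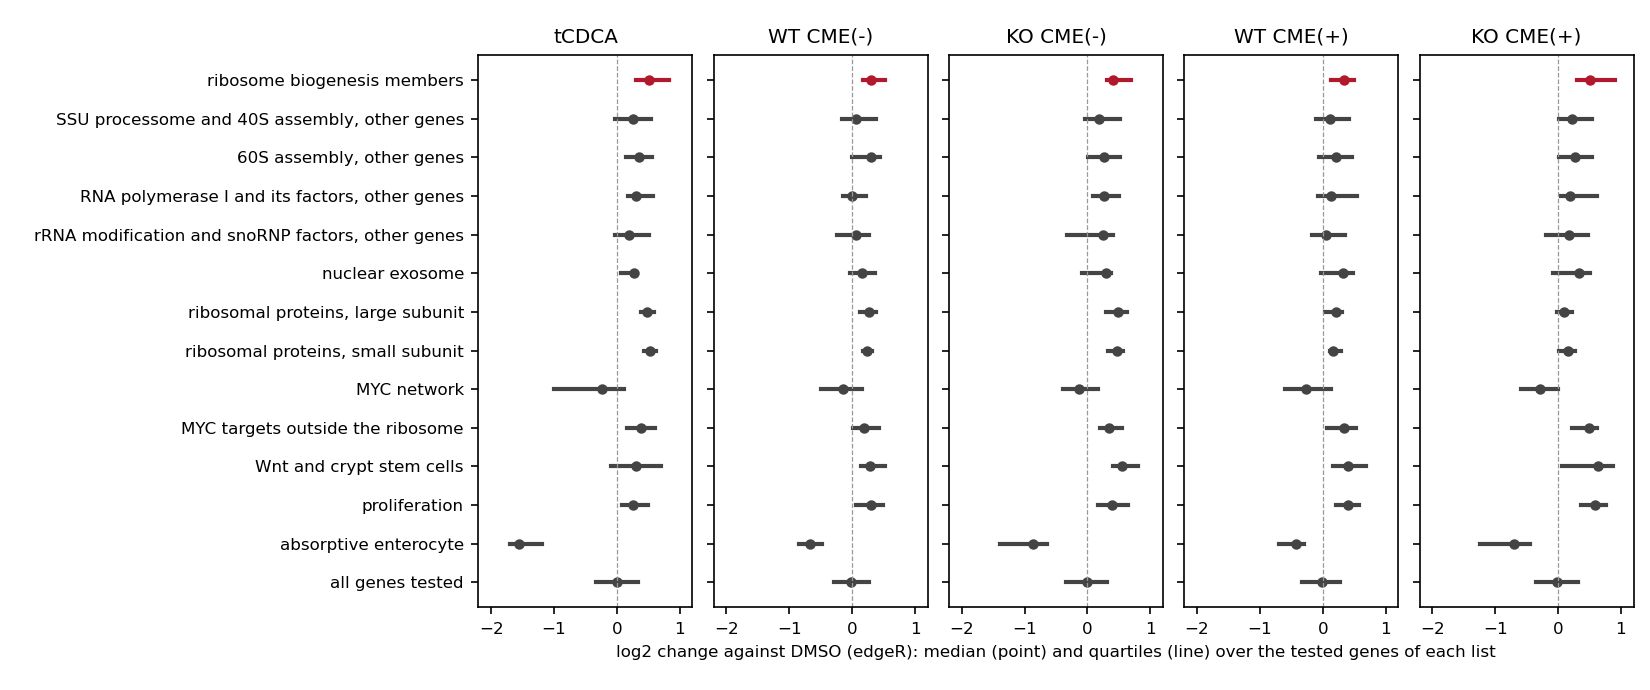
For each gene list (rows) the point is the median and the line the quartiles of the edgeR log2 change against DMSO over its tested genes, in 5 treated groups (panels). The 41 genes (red) have medians of 0.51, 0.30, 0.40, 0.33 and 0.50 from left to right, the absorptive enterocyte markers -1.55, -0.66, -0.86, -0.42 and -0.70, and all genes tested lie at 0.00 to -0.02.

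Markers of cell types moved in the same comparisons. Absorptive enterocyte genes fell with tCDCA, 14 of 19, with none higher; their summed level was 5900 to 10900 CPM in tCDCA libraries, against 13000 to 16900 CPM with DMSO. In the first run it was 10900 CPM with tCDCA, against 7850 CPM in the removed DMSO library, the opposite order. With KO CME(+) 2 of the 19 fell, and likewise 2 with WT CME(-) and 2 with KO CME(-), with medians of -0.70, -0.66 and -0.86. The summed level with KO CME(+) was 7090 to 9910 CPM in the second run and 10400 CPM in the first. Of 14 tested crypt stem cell and Wnt genes 3 rose with tCDCA, Lrig1 (1.48 ± 0.38, adjusted p = 0.0131), Ephb3 (1.45 ± 0.44, 0.039) and Sox9 (0.73 ± 0.22, 0.0456), while 6 of the 14 changes were negative, down to -0.97 for the stem cell gene Lgr5, named after its value was seen. With KO CME(+) 2 of the 14 rose and 11 changes were positive (median 0.63). In the second run their summed level was 385, 393 and 405 CPM with tCDCA and 415, 439 and 404 CPM with KO CME(+). The DMSO libraries were at 363, 259 and 305 CPM, all lower. In the first run it was 258 CPM with tCDCA and 200 CPM with KO CME(+), against 289 CPM in the removed DMSO library, the opposite order. Of 20 proliferation genes none was called with tCDCA (3 unadjusted, 18 positive, median 0.25). With KO CME(+) 1 was called, Mcm2, named after its value was seen (9 unadjusted, 19 positive, median 0.58). Of all 13125 genes 2322 had an unadjusted p under 0.05 with tCDCA and 1997 with KO CME(+). In the second run the proliferation genes summed to 478, 522 and 648 CPM with tCDCA, overlapping DMSO at 615, 420 and 452 CPM. With KO CME(+) they summed to 778, 875 and 805 CPM, above all DMSO libraries. In the first run the sums were 526 CPM with tCDCA and 467 CPM with KO CME(+), against 543 CPM in the removed DMSO library. Paneth cell genes rose in 3 of 9 with tCDCA and in 2 of 9 with KO CME(-), and 0 of 9 were called with KO CME(+) (2 unadjusted). In the second run their summed level was 34800, 49000 and 31500 CPM with tCDCA, against 23400, 27300 and 26500 CPM with DMSO, while in the first run it was 37200 CPM with tCDCA, against 40100 CPM in the removed DMSO library, again the opposite order. Of 13 enteroendocrine genes 3 rose with tCDCA and 1 with KO CME(+). All 10 smooth muscle genes had negative changes with KO CME(+) (median -0.61, 1 called, 6 unadjusted), against 6 of 10 with tCDCA (median -0.06, 0 called, 0 unadjusted). Whether these shifts have a part in the values of the 41 genes was not tested. In bulk tissue fewer cells of a type and less RNA per cell cannot be told apart.

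The comparison of CME(-) with CME(+) asks what the bile acids in the extracts change, and none of the 41 genes was called there. With WT donors edgeR called 0 of them (1 at an unadjusted p under 0.05, 0 by DESeq2), against 0 of 13125 genes (0.0%), and with KO donors 0 (2 unadjusted, 0 by DESeq2), against 3 genes in all (0.0229%, with 0.0152% higher and 0.00762% lower). The log2 differences split into 19 positive and 22 negative with WT donors (median -0.01) and 17 and 24 with KO donors (median -0.03). Over both donors together 0 were called (2 unadjusted, 0 by DESeq2) where 0.434% of all genes were (0.152% higher, 0.282% lower). Of all 13125 genes 831 had an unadjusted p under 0.05 with WT donors, 933 with KO donors and 1285 over both. For Ddx21 the difference over both donors was -0.08 ± 0.12, with a 95% interval from -0.33 to 0.16, and for Npm1 it was -0.04 ± 0.10 (-0.25 to 0.17). Gar1 was at -0.40 ± 0.16 (-0.72 to -0.09, adjusted p = 0.322), with 34.8, 42.1 and 44.6 CPM in WT CME(-) libraries of the second run, against 44.0 and 49.1 in WT CME(+). The WT groups overlapped, and with KO donors the CME(-) libraries at 24.6 and 54.1 CPM overlapped the CME(+) libraries at 53.1, 51.5 and 54.1 CPM, the highest values of both being level. Wdr12, of the PeBoW complex, was at 0.66 ± 0.28 (0.09 to 1.24, adjusted p = 0.402). Intervals were widest for the sparsely counted Rrp12, -0.14 with a range from -1.09 to 0.82, so differences within that range are not excluded for it. The difference between donors in this contrast was not called for any of the 41 either (2 unadjusted, Pes1 at -0.90 ± 0.41 and Ppan at -1.28 ± 0.62). Of all 13125 genes 491 had an unadjusted p under 0.05 there.

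**Figure D5:**
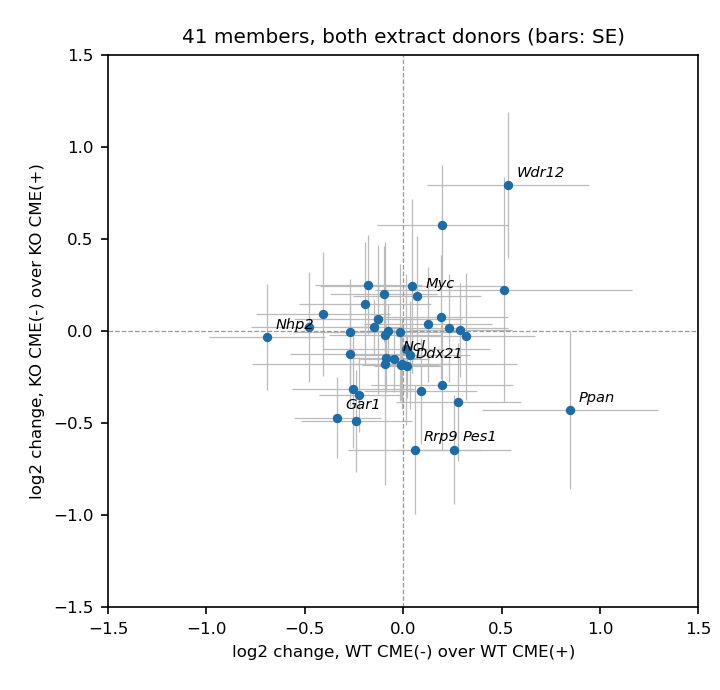
Each point is 1 of the 41 genes: its edgeR log2 difference of WT CME(-) over WT CME(+) on the horizontal axis and of KO CME(-) over KO CME(+) on the vertical axis, with bars of 1 SE. The points lie around 0 on both axes, with medians of -0.01 and -0.03, and Ppan (0.85) and Wdr12 (0.79) are the largest on the horizontal and the vertical axis.

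Donor genotype gave no called gene among the 41 either. KO CME(-) over WT CME(-) had 26 positive and 15 negative log2 differences (median 0.16), 3 at an unadjusted p under 0.05. KO CME(+) over WT CME(+) had 31 and 10 (median 0.21), 5 unadjusted. In both comparisons edgeR called 0 of 13125 genes (0.0%), and 531 and 556 of all genes had an unadjusted p under 0.05. In the second of these Dkc1 was at 0.62 ± 0.27, with 26.5, 29.1 and 30 CPM in KO CME(+) libraries of the second run against 18.9 and 21.6 in WT CME(+), and was not called. Between tCDCA and the extracts edgeR called none of the 41. The medians were 0.22 over WT CME(-), 0.08 over KO CME(-), 0.23 over WT CME(+) and -0.04 over KO CME(+). In that order 5, 1, 2 and 1 of the 41 had an unadjusted p under 0.05, against 1403, 1090, 1601 and 1626 of 13125 genes. DESeq2 called 1, 0, 0 and 1 of the 41. Of all genes 0.267% were higher and 0.274% lower in tCDCA than in WT CME(-) libraries, 0.0457% and 0.0686% against KO CME(-), 0.488% and 1.06% against WT CME(+), and 0.869% and 1.06% against KO CME(+).

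Libraries were also compared without a model. In the second run 15 of the 41 genes had all tCDCA libraries above all DMSO libraries and none had them below, against 9.33% of all genes above and 9.78% below. With KO CME(+) 22 were above and none below (12.3% and 11.2% of all genes), with WT CME(-) 10 above and none below (6.71% and 6.82%), with KO CME(-) 15 above and 1 below (12.6% and 14.2%) and with WT CME(+) 12 above and none below (12.4% and 12.1%). KO CME(-) and WT CME(+) had only 2 used second-run libraries each, which makes such separation easier. Ddx21, Nop16 and Npm1 were above DMSO in all second-run libraries of all 5 treated groups. These 5 comparisons share the same DMSO libraries and are not independent, and the share of all genes with this pattern was not counted. For 18 of the 41, among them Bysl, Dkc1, Nop56, Polr1a, Heatr1 and Wdr43, an opposite-strand gene shares exon bases in GENCODE M21 (build GRCm38), and reads of the 2 genes cannot be told apart if strand was not used in counting.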

How the data were processed

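Libraries of ileal fragments were made from 100 ng of total RNA with a QuantSeq 3' kit, per the labels. What the authors deposited is a single table of raw counts, 1 row a gene, without normalization; the submitters' processing notes name FastQC, cutadapt, HISAT2, Picard and the build GRCm39, without versions, while the sources used here do not name the counting tool or its strand setting. Symbols were taken from GENCODE M21 and named 51884 of 57126 identifiers; the 41 members and 25 further gene lists (518 of 522 symbols found) were chosen with earlier results of these data known. Groups came from the sample titles, 3 libraries that the labels mark as removed were left out, and column name prefixes were taken as runs. In R 4.3.3, counts were filtered with filterByExpr, scaled by TMM and fitted with edgeR 4.0.16 (robust quasi-likelihood, group and run, 21 libraries, common biological coefficient of variation 0.266); 15 two-sided contrasts were tested, each adjusted over 13125 genes. DESeq2 1.42.0 was an alternative, with other scalings, filters, covariates and left-out libraries. Depth was 2755149 to 5602265 counts per used library. On simulated counts for tCDCA against DMSO (12723 genes), 37.8% of 98 genes changed by a log2 of 1 and 69.8% of 96 changed by 2 were recovered, with 6 false calls of 110. Per-library values were named for Myc and the called members. Those of Ncl, and the DMSO values of Fbl and Bysl, were added after they were seen. Of each other list up to 4 genes with the smallest p under tCDCA were named, apart from those marked as named after their values were seen. WT and KO extracts of the second run pair by donor between CME(-) and CME(+). Same-donor libraries correlated at -0.037 to 0.112 in their deviations from the group means. WT CME(+) and KO CME(-) had only 2 used second-run libraries each, whose deviations mirror each other, so these correlations cannot show whether donors matter. With replicates as blocks 0 members were called between CME(-) and CME(+). Without blocks 0 were called too, so there was no call to lose, and the donors of replicate 1 are not named. This therefore cannot show whether donors matter either. Levels were not compared between genes.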

Additional observations from a re-analysis of the deposited data

Results flagged for a closer look

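Values of 1 library far from the other 3 of its group were looked for in the groups of 4 libraries, in which the gap to the nearest library was divided by the range of the group (limit 0.829 for 4 libraries); by chance about 1 in 20 groups passes, and 27 were looked at. The median level of the 41 genes relative to DMSO was lowest in tCDCA replicate 1 (0.16 log2 units, ratio 0.905) and in KO CME(+) replicate 1 (-0.02, ratio 0.879). Gar1 was lowest in KO CME(+) replicate 1 (19.9 CPM, ratio 0.951), and Polr1a in WT CME(-) replicate 1 (3.22 CPM, ratio 0.939). All 4 are first-run libraries.

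KO CME(-) replicate 3, a library the labels mark as removed, had a median of 0.26 for the 41 genes relative to DMSO, above the highest used DMSO library at 0.20. The other removed second-run library, WT CME(+) replicate 2, was at -0.17, level with the lowest DMSO library.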

How the results depend on the processing

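In the comparisons with DMSO no called log2 change of the 41 genes changed sign in any alternative, and of 4216 log2 changes over all members and alternatives 205 uncalled ones did. Counts of called genes are given for tCDCA, KO CME(-) and KO CME(+) against DMSO, where they were 5, 1 and 4. Without scaling factors they were 3, 0 and 7, and this scaling moved the median of all genes by 0.13 with tCDCA and 0.22 with KO CME(+). Without a count filter KO CME(-) gave 2 and KO CME(+) 7, and with DESeq2 the counts were 8, 4 and 8. Without the run term they were 0, 0 and 0, and in second-run libraries 3 with tCDCA and 0 with KO CME(-). With all 24 libraries they were 1, 0 and 2, and with DMSO replicate 1 added 2 with tCDCA and 0 with KO CME(-). Without tCDCA replicate 3 and DMSO replicate 3 together the same comparisons gave 3 and 0. In the compared groups alone the counts were 1, 0 and 0, and these fits against DMSO had no run term either. WT CME(+) gave 1 with no count filter and 1 with DESeq2. tCDCA against WT CME(-) and against KO CME(+) gave 1 each with no count filter and with DESeq2, and tCDCA against KO CME(+) 1 in the compared groups alone. Leaving out each replicate in turn gave 1 to 8 with tCDCA, 0 to 2 with KO CME(-), 1 to 5 with KO CME(+), and 0 to 1 for tCDCA against WT CME(-) (1 without tCDCA replicate 2) and against KO CME(+) (1 without KO CME(+) replicate 2). Counts over all genes tested moved too over the alternatives. They ran from 176 to 993 with tCDCA, 3 to 297 with KO CME(-), 3 to 610 with KO CME(+) and 1 to 188 with WT CME(+). For tCDCA against WT CME(-) they ran from 0 to 196, and against KO CME(+) from 3 to 437. The cause of these changes was not tested.

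Same-numbered tCDCA and DMSO libraries share only a number (correlations of deviations 0.201, -0.158 and -0.182). With the replicate block in all used libraries tCDCA gave 3 and KO CME(-) 0; with the replicate block in the compared groups alone tCDCA gave 0, KO CME(-) 0 and KO CME(+) 7. The block changed no other count of called members.

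Depth limits the lowest members: Polr1b had 2 to 22, Rrp12 0 to 43 and Nat10 4 to 42 counts per library.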
